A study of Mus musculus with 188 samples.

Results

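Integrins are the receptors that hold basal keratinocytes to the basement membrane. The genes described here are the integrin subunits Itga6, Itgb4, Itga3, Itgb1, Itga2, Itgav and Itgb6, the cytoplasmic linkers Dst and Plec, and the tetraspanin Cd151. They were chosen by symbol, and each of the 10 symbols matched 1 row of the 49585 gene rows in the count table. The cells were 188 single keratinocytes from tail skin of mice at postnatal day 20, 94 on each of 2 plates, 1 cell per Smart-seq2 library. The mice carried Lrig1-CreERT2 and a RosaYFP reporter, in which Cre under the Lrig1 gene marks cells with yellow fluorescent protein. The sort kept cells without surface CD34, without YFP and with surface integrin alpha 6. All cells form 1 group, with no untreated or mutant group beside it. Since no label names an animal, the cells are 1 sample, and nothing here carries a p-value or a standard error. The protein of Itga6 was used for the sort, so the presence of Itga6 in these cells is no finding.

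An integrin is a pair of 1 alpha and 1 beta subunit, both of which cross the membrane. In epidermis the pair of Itga6 and Itgb4 builds the hemidesmosome, in which plectin (Plec) and the epithelial form of dystonin (Dst, also called BPAG1e or BP230) tie the tail of Itgb4 to the keratin filaments. The pair of Itga3 and Itgb1 binds the same laminin and sits in focal contacts, where it is linked to actin, and Cd151 binds laminin-receptor integrins in the membrane. Itga2 pairs with Itgb1 as a collagen receptor. Itgav pairs with several beta subunits, of which Itgb6 makes a receptor that activates TGF-beta. Krt10 is the keratin that keratinocytes make as they leave the basal layer, so its level was used to order the cells.

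Promoter windows of 300 bases from RefSeq (GRCm38.p6) were found for 7 of the 10 genes, in 11 windows. Itga6, Itgb4 and Plec had no entry. The 250 bases before the start are shown for 3 genes, Itga3, Itgb1 and Itgav. Itga3 and Itgb1 pair as a receptor and were both lower in the cells with most Krt10. The mean of Itgav there was 0.93 of its mean in the cells with least Krt10, made of 0.30 on plate 1 and 1.05 on plate 2. Each stretch of bases is written 5′ to 3′ on the strand of the gene, with capitals where the letters match a motif searched. The windows are chr11:95076715-95076964 on the minus strand for Itga3, chr8:128685404-128685653 on the plus strand for Itgb1 and chr2:83724147-83724396 on the plus strand for Itgav.
Itga3: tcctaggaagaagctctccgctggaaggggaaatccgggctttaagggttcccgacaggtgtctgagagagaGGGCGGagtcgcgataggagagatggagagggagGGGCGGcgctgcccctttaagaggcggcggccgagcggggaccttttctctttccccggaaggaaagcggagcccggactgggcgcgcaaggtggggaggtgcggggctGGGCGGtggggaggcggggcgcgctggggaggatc
Itgb1: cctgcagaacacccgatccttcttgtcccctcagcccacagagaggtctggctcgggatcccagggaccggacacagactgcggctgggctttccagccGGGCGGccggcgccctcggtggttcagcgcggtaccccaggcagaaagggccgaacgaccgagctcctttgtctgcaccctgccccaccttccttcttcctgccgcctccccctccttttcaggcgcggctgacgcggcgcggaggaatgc
Itgav: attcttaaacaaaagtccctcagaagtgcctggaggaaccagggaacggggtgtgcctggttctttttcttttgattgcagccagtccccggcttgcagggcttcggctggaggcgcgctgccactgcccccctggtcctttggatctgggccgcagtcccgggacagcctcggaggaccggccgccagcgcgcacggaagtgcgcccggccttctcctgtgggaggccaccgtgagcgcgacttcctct
The motifs were GGGCGG (Sp1), TGANTCA (AP-1), CCAAT and TATAAA, searched on both strands, and no base of these windows was held by more than 1 motif. Itga3 has another start in the table, whose window is not shown and holds 1 Sp1, 1 AP-1 and 1 CCAAT match. The start shown lies nearer the annotated 5′ end of the gene and was chosen after its matches were seen. The Sp1 letters occurred 3 times before the start of Itga3 shown and 1 time before that of Itgb1, and the 250 bases shown for Itgav hold none of the 4 motifs. The full window of 300 bases for Itgav holds 1 Sp1 match, past the bases shown, as many as the window of Itgb1. In the 250 bases before a start, Itga2 held 0 Sp1 matches. Dst held 4 at 1 start and 0 at the other, and Cd151 held 2 and 0. Among the 11 windows of 300 bases, 7 windows of 6 genes held the Sp1 letters, against 35.7% of all 32851 windows of that length. AP-1 letters were in 1 window, of Itga3 (7.81% of all windows), CCAAT in 2 (37.4%) and TATAAA in 0 (13.6%). These matches describe the letters only.

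A cell had 79868 to 1093805 reads over genes (median 369991), here called its depth, and levels are CPM, counts per 1000000 reads of that total, with spike-ins left out. As for other cell types, none of the 188 cells held 3 or more markers of T cells, Langerhans cells, melanocytes, Merkel cells, fibroblasts or endothelial cells at 10 CPM, and 2 cells held 3 sebaceous markers. Single markers were read in more cells: the fibroblast marker Dcn reached 10 CPM in 56 cells, the melanocyte marker Pmel in 11, and the sebaceous markers Scd1 and Plin2 in 146 and 76. The summed level over a list reached 552.8 CPM for fibroblasts, 598.2 for melanocytes and 861.8 for the sebaceous gland, with medians of 3.47, 0 and 92.7 CPM, and the part of these markers in the results was not tested. Of the defining markers, Cd34, Cd207, Ptprc, Cd3e, Cd3d, Trdc, Krt20, Atoh1, Pdgfra, Cdh5, Tie1 and Mc5r had no read in any cell, where the limit of 3 cells among 188 leaves room for 1.596% of cells with one. All 188 cells held at least 3 of 5 basal and at least 3 of 5 differentiating keratinocyte markers at 10 CPM, a level that stray reads alone can pass for such abundant genes. Reads also strayed between wells that share an index. From 41 genes whose reads were concentrated in 1 well, 0.313% of the source reads were expected in each other well of the same row, 0.140% in each of the same column and 0.0147% elsewhere. By these rates 3.61% to 60.1% of a cell's gene reads were expected to be stray (median 11.3%), and a gene is called above the stray level in a cell only at over 3 times its own expected stray reads.

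The hemidesmosome genes were read in every cell. Itga6 (chromosome 2, 71745616 to 71858416, plus strand, GRCm38 as are all positions) had 36.3 CPM in its lowest cell, a median of 560 and a highest value of 2543, with a mean of 646 ± 400 CPM (SD, 188 cells). The plates gave close means, 647 ± 364 CPM on plate 1 and 645 ± 434 on plate 2 (94 cells each). Its values overlapped throughout between the plates, and 157 of 188 cells were above the stray level. Itgb4, its partner in the hemidesmosome (chromosome 11, 115974709 to 116008412, plus strand), ranged from 8.30 to 1461 CPM with a median of 194 and a mean of 275 ± 239. The spread of Itgb4 was wide for its level, with a coefficient of variation of 0.870 against 0.618 for Itga6. Of its exonic bases 7.66% are shared with another annotated gene, and no source used here says whether strand was used in counting.

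The linkers had the highest counts of the 10 genes, and their transcripts are also the longest. Dst (chromosome 1, 33908225 to 34308661, plus strand) had 226 CPM in its lowest cell, a median of 1669 and a highest value of 4208, with a mean of 1675 ± 777. Plec (chromosome 15, 76170974 to 76232574, minus strand) ranged from 45.4 to 2674 CPM, with a median of 814 and a mean of 899 ± 493. Both linkers were somewhat higher on plate 1, with means of 1849 against 1500 CPM for Dst and 977 against 820 for Plec, within the SD of either plate. The count of Dst covers all its isoforms, of which the epithelial one was not separated.

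The Itga3 pair and Cd151 were more uneven, with coefficients of variation of 0.990 for Itga3, 0.932 for Itgb1 and 1.007 for Cd151. Itga3 (chromosome 11, 95044474 to 95076801, minus strand) ranged from 1.53 to 796 CPM with a median of 131 and a mean of 186 ± 184, and was above the stray level in 116 of 188 cells. Itgb1, the common beta subunit (chromosome 8, 128685654 to 128733200, plus strand), ranged from 16.3 to 3061 CPM with a median of 267 and a mean of 325 ± 303. Its highest value came from 1 cell of plate 1, since the highest on plate 2 was 1244. Cd151 (chromosome 7, 141467392 to 141471473, plus strand) ranged from 0 to 802 CPM with a median of 101 and a mean of 148 ± 149, and 7.04% of its exonic bases are shared with another gene. It was above the stray level in 117 cells.

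The remaining subunits were read in part of the cells. Itgav (chromosome 2, 83724397 to 83806916, plus strand) reached 10 CPM in 109 of 188 cells, 58.0% (95% Clopper-Pearson interval 50.6% to 65.1%, counting error only), with a median of 14 and a highest value of 510 CPM. Itga2 (chromosome 13, 114833081 to 114932100, minus strand) reached 10 CPM in 39 cells, 20.7% (15.2% to 27.3%), was at 0 in 94 and had a highest value of 310 CPM. Itgb6 (chromosome 2, 60598292 to 60722643, minus strand) reached it in 17 cells, 9.04% (5.36% to 14.1%), was at 0 in 116 and had a highest value of 525 CPM. Each plate held a like number of such cells, 18 and 21 for Itga2 and 9 and 8 for Itgb6.

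**Figure D1:**
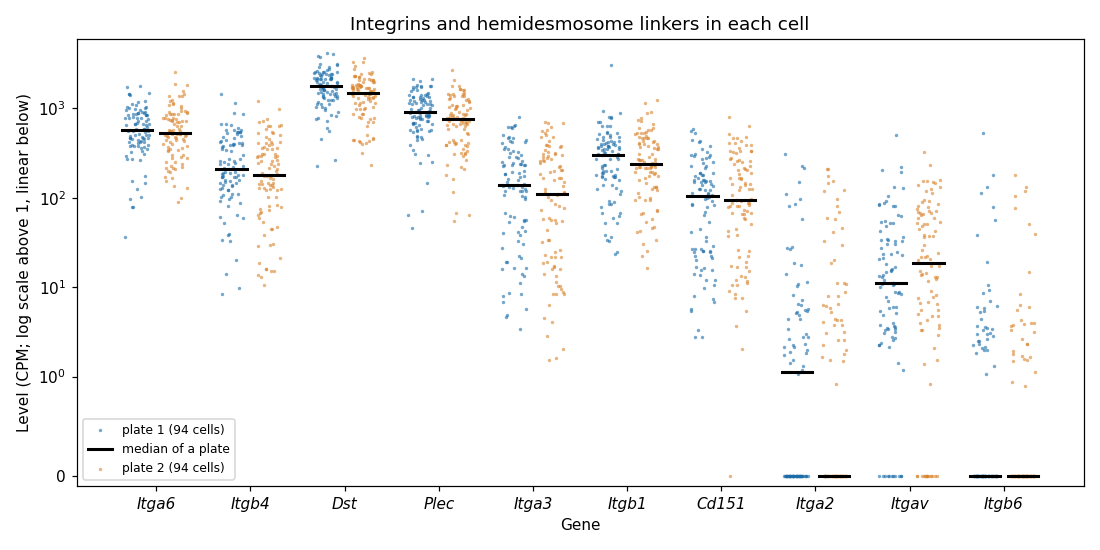
Level of each gene in each cell in CPM (vertical axis, log scale above 1 and linear below), with plate 1 in blue, plate 2 in orange and a bar at the median of each plate. The 7 genes on the left were read in nearly every cell, while Itga2 and Itgb6 were at 0 in 94 and 116 of 188 cells.

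Between genes, levels can be set side by side only per length. Divided by exon union length and scaled so that the genes of a cell sum to 1000000 (TPM), the mean levels were in the order Itgb1 187 ± 179, Itga6 167 ± 106, Cd151 125 ± 128, Plec 116 ± 65.4, Dst 94.9 ± 45.9, Itgb4 92.0 ± 80.8 and Itga3 76.5 ± 76.6 TPM (SD, 188 cells). Itgav at 8.35 ± 13.4, Itga2 at 6.09 ± 16.2 and Itgb6 at 3.66 ± 15.95 TPM stood apart at the low end. Among the first 7, neighbours in this order differed by less than the SD of either over cells. Of all 10 genes, the plates agreed on Itgb1 first, Itga6 second and Itga3, Itgav, Itga2 and Itgb6 last. Plec was above Cd151 and Dst above Itgb4 on plate 1, and both were the other way round on plate 2. With the longest transcript as the length, Itga6 came first at 281 TPM, Itgb1 second at 160, and Dst moved above Plec at 135 against 109, so the order among the abundant genes depends on the length taken. By either length Itga6 exceeded Itgb4 in mean, and the median log2 ratio of Itga6 to Itgb4 within a cell was 1.05 (SD 1.40 over cells, exon union).

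The question of how these genes change as cells leave the basal state was read from Krt10. The cells were ranked by Krt10 and put into 8 steps of 23 or 24 cells, and the 94 cells with the lowest Krt10 (steps 1 to 4 without the last 2 cells of step 4) are the reference. Krt10 was 185 to 879 CPM in the reference, 909 to 1377 in step 5, 1382 to 3105 in step 6, 3179 to 15834 in step 7 and 18656 to 45289 in step 8. In steps 1 to 4 the stray Krt10 expected in a cell had a median of 89.9% to 116% of its measured Krt10, and Krt10 was above the stray level in 2 of the 94 reference cells, 2 of 23 cells in step 5, 6 of 23 in step 6, 22 of 23 in step 7 and 23 of 23 in step 8. The same median was 73.8% in step 5 and 64.95% in step 6. Median depth went from 575217 gene reads in step 1 to 240641 in step 6 and was 377328 in step 7 and 392320 in step 8. The part of stray reads and depth in the order of the low steps was not tested. The reference held 58 cells of plate 1 and 36 of plate 2, and step 8 held 7 and 16. Krt14, the basal keratin, had a median of 26686 CPM in step 7 and 5370 in step 8, against 37658 in the reference.

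A gene was counted as falling with Krt10 if Spearman's rho was at most -0.3 on both plates, a rule of size with no test. By this rule 5 of the 10 genes fell: Plec (rho -0.51 over 188 cells, -0.54 on plate 1 and -0.49 on plate 2), Itga6 (-0.48, -0.41 and -0.56), Itga3 (-0.48, -0.42 and -0.53), Itgb1 (-0.46, -0.41 and -0.52) and Itgb4 (-0.42, -0.31 and -0.51). Among the 9344 genes that reached 10 CPM in 10% or more of the cells, 44 fell by the same rule (0.471%) and 59 rose (0.631%), and none of the 10 genes rose. Dst stayed outside it through plate 1 (-0.34, -0.24 and -0.38). Itgb6 (-0.20), Cd151 (-0.15), Itga2 (-0.13) and Itgav (0.02) had weak values on all cells. The median rho was -0.38 over the 10 genes and -0.00 over the 9344. Itgb6, at 10 CPM in 17 cells, is not among the 9344 genes. Itgb4 lies just inside the limit on plate 1, and it left the rule without the 2 cells with the highest Krt10. With cells ordered by Krt1 instead, another suprabasal keratin, 3 genes remained in the rule (Itgb4, Itga3 and Plec).

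The size of the change was taken from the means of the steps. In step 8 the mean was at most 50% of the reference for 6 of the 10 genes, against 19.2% of the 9344 genes, and at least 200% for none of the 10, against 6.18%. The median ratio of step 8 to the reference was 0.34 over the 10 genes and 0.88 over the 9344.

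Itga3 had a ratio of 0.0611 and Itga2 one of 0.0648, the lowest of the 10 genes. Which of the 2 was lower changed with the setting, with Itga2 at 0.0485 and Itga3 at 0.112 when cells were ordered by Krt1. In the reference Itga3 had a median of 185 CPM and a highest value of 796, and 76 of 94 cells were above the stray level. In step 8 its values ran from 1.53 to 33.6 CPM with a median of 13.5 and a mean of 13.96 ± 9.20 (SD, 23 cells), below the expected stray mean of 21.9 CPM. None of the 23 cells was above the stray level, where 0 of 23 allows up to 13.04%. Its ratio in step 8 was 0.0591 in the 7 plate 1 cells and 0.0628 in the 16 plate 2 cells. Step 7 was mixed: Itga3 ran from 2.05 to 426 CPM with a median of 21.5, and 7 of 23 cells were above the stray level. In step 6 its mean was still 1.10 of the reference.

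Its partner Itgb1 had lower step means earlier and a higher ratio at the end. The mean was 0.73 of the reference in step 6, 0.45 in step 7 and 0.28 in step 8. In step 8 its values ran from 16.3 to 508 CPM with a median of 58.6 and a mean of 115 ± 138, against a reference median of 361, and 7 of 23 cells were above the stray level. The ratio in step 8 was 0.41 on plate 1 and 0.22 on plate 2. The groups overlapped, and 4 of the 23 cells lay below every reference cell. Itga2, the collagen receptor subunit, had a mean of 24.7 CPM in the reference and 1.603 in step 8, where its highest cell had 6.45 CPM and the expected stray mean was 2.31. It was above the stray level in 28 of 94 reference cells and in 1 of 23 cells in step 8.

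The hemidesmosome integrin was also low in step 8. Itgb4 had a median of 265 CPM in the reference, 137 in step 7 and 30.3 in step 8, where the values ran from 8.30 to 195 CPM with a mean of 52.2 ± 49.0. In step 8 the expected stray mean was 31.1 CPM, 5 of 23 cells were above the stray level, and 13 of 23 lay below every reference cell. Its ratio was 0.91 in step 6, 0.58 in step 7 and 0.16 in step 8. Itga6 had a median of 721 CPM in the reference, 380 in step 7 and 226 in step 8, where the values ran from 78.3 to 710 CPM with a mean of 266 ± 182. No cell of step 8 lay below every reference cell for Itga6, 13 of 23 were above the stray level, and the ratio was 0.33. Within plates 1 and 2 the step 8 ratios were 0.19 and 0.15 for Itgb4 and 0.27 and 0.33 for Itga6. These are cells that the sort kept for surface integrin alpha 6, so cells without that protein at the surface are not in any step.

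The linkers differed from each other. Plec had a median of 1009 CPM in the reference and 316 in step 8, where the values ran from 64.5 to 772 CPM with a mean of 379 ± 199 and a ratio of 0.35. Dst kept more of its level. Its median was 1742 CPM in the reference and 980 in step 8, the values there ran from 233 to 3855 CPM, and the ratio was 0.73 in step 7 and 0.61 in step 8. On plates 1 and 2 the step 8 ratios were 0.33 and 0.38 for Plec and 0.74 and 0.58 for Dst. The highest step 8 cell for Dst, at 3855 CPM, stood close to the highest reference cell at 4208 CPM. It was 1 of the 7 plate 1 cells of step 8, so the plate 1 ratio leans on it. The next highest step 8 cell had 2249 CPM. Cd151 had a median of 106 CPM in the reference and 66.3 in step 8 with a ratio of 0.75, and 13 of 23 cells in step 8 were above its stray level.

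Itgav did not follow the other subunits. It had a median of 12.5 CPM in the reference and 20.9 in step 8, where the values ran from 0 to 158 CPM and 13 of 23 cells were above the stray level, against 50 of 94 in the reference. Its ratio in step 8 was 0.93, made of 0.30 in the 7 plate 1 cells and 1.05 in the 16 plate 2 cells, so the plates gave different values. Itgb6 gave no readable ratio. Its step 8 mean of 8.36 CPM rests on 1 cell with 182 CPM, its reference mean on few cells up to 525, and without the highest of those the ratio moved from 0.61 to 1.02.

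Read as an order, the first step from which a gene stayed at or below 75% of its reference was step 6 for Itgb1, Plec and Itga2, step 7 for Itga6, Itgb4, Itga3 and Dst, and none for Itgav and Cd151, with Itgb6 left out for its unreadable ratio. For 50%, it was step 6 for Itga2, step 7 for Itgb1 and Itga3, step 8 for Itga6, Itgb4 and Plec, and none for Dst, Itgav and Cd151. Cd151 ended just above the 75% mark, at 0.7534 in step 8, and its top step had 0.57 with cells ordered by Krt1. The order of these steps did not hold under other settings. In the step before the top, ordering by Krt1 gave 0.45 for Itgb4, 0.51 for Itga3, 0.57 for Itga6 and 0.66 for Itgb1, and without the 25% of cells with the lowest depth Itga6 (0.48) and Itgb4 (0.43) were already under 0.5. On plate 2 alone the third of 4 steps had 0.72 for Itga6, 0.85 for Itgb1 and 1.07 for Itga3. Over all 9344 genes the median ratio was 0.96 in step 6, 0.94 in step 7 and 0.88 in step 8. From step 5 to step 8, the means of neighbouring steps differed by less than the larger of their SDs for all 10 genes. Such an SD is the spread of single cells, not the error of a step mean, so it cannot settle the order between steps 6 and 7. With 4 steps in each plate alone, the top step of plate 1 had ratios of 0.53 for Itga6, 0.58 for Itgb4 and 0.58 for Plec, above the 50% mark, while that of plate 2 had 0.35, 0.17 and 0.39. Plate 1 has fewer cells in step 8, and whether the plates differ otherwise was not tested.

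**Figure D2:**
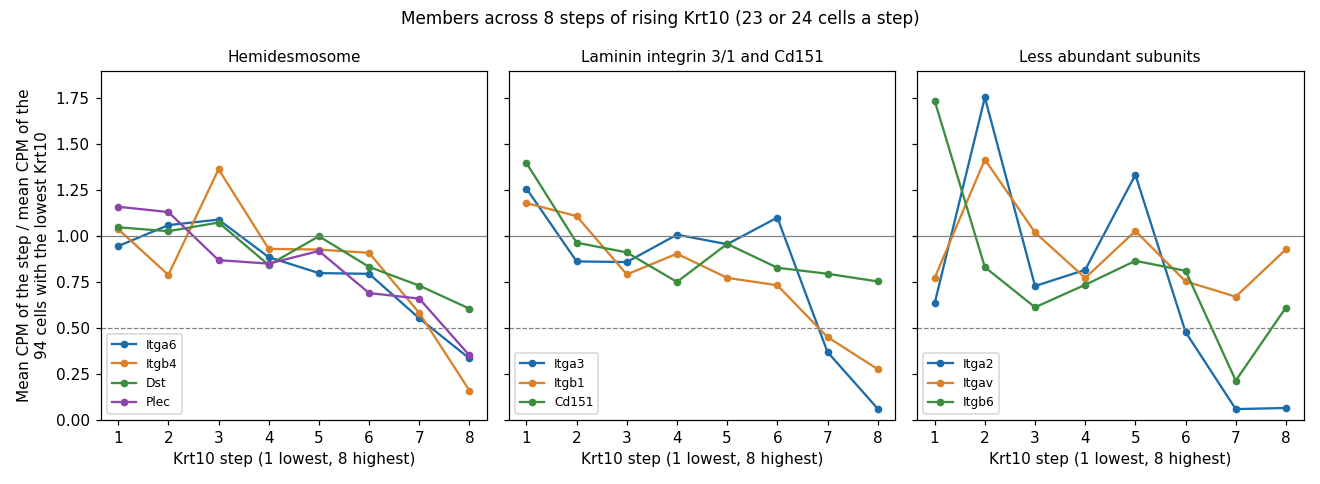
Mean CPM of each gene in 8 steps of rising Krt10 (horizontal axis, 23 or 24 cells a step), divided by its mean in the 94 cells with the lowest Krt10. The solid line marks 1 and the dashed line 0.5. Itga3 lies between 0.86 and 1.26 up to step 6 and ends at 0.06, while Dst ends at 0.61, Cd151 at 0.75 and Itgav at 0.93.

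**Figure D3:**
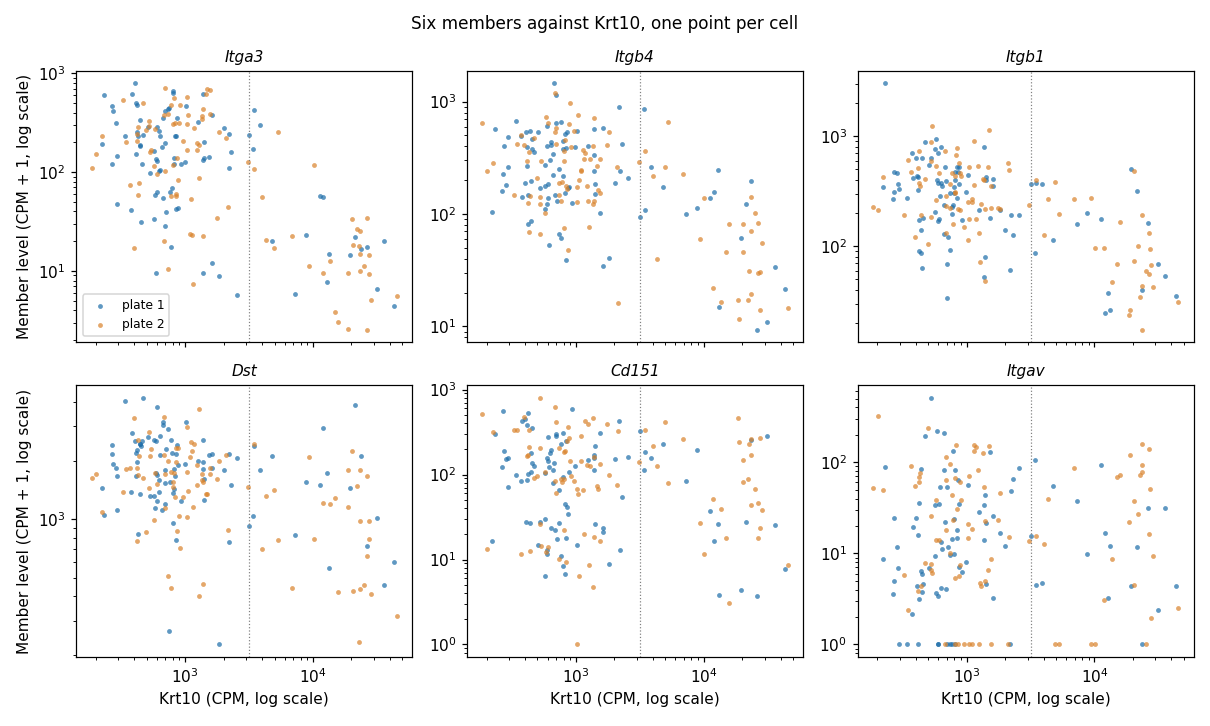
Level of 6 genes (CPM + 1, log scale) against Krt10 (CPM, log scale) in each of 188 cells, plate 1 in blue and plate 2 in orange. The dotted line marks the lowest Krt10 of step 7, 3179 CPM. To its right Itga3, Itgb4 and Itgb1 reach 426, 855 and 508 CPM, and Cd151 and Itgav 464 and 158 CPM. The medians in steps 7 and 8 were 21.5 and 13.5 CPM for Itga3, 137 and 30.3 for Itgb4, and 166 and 58.6 for Itgb1. They were 83.4 and 66.3 CPM for Cd151 and 11.8 and 20.9 for Itgav.

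Scaling bears on these ratios. With levels set against spike-in reads, the median step 8 ratio over all genes moved from 0.88 to 1.05, a shift of 0.26 on the log2 scale. On that scale the ratios of the 5 falling genes were 0.40 for Itga6, 0.20 for Itgb4, 0.0747 for Itga3, 0.34 for Itgb1 and 0.41 for Plec. Relative to the median of all genes, which cancels most of a change of scale, they were 0.38, 0.19, 0.07, 0.33 and 0.39. Subtracting expected stray reads took the ratio of Itga3 to 0.00637 and that of Itgb4 to 0.0906. It also moved the balance over all genes from 44 falling and 59 rising to 51 and 39.

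Summed per length, the RNA of the subunits differed in make-up between the reference and step 8. In the reference the alpha subunits summed to 329 TPM, of which Itga6 made 63.3%, Itga3 28.8%, Itgav 2.81% and Itga2 2.54%. In step 8 the sum was 81.3 TPM, with 78.5% from Itga6, 6.48% from Itga3 and 9.60% from Itgav. The beta subunits summed to 385 TPM in the reference, with 62.9% from Itgb1, 28.7% from Itgb4 and 7.18% from Itgb5. In step 8 they summed to 174 TPM, with 35.8% from Itgb1, 9.26% from Itgb4 and 50.5% from Itgb5. With the longest transcript as length, Itgb5 made 50.4% in step 8 and Itga6 85.3%. Itgb5, which pairs with Itgav as a vitronectin receptor, had a median of 7.71 CPM in the reference and 105 in step 8, where the values ran from 0 to 542 CPM. It was above the stray level in 17 of 23 cells of step 8 against 32 of 94 reference cells, and its ratio was 4.47 in the plate 1 cells and 3.67 in the plate 2 cells. Its rho with Krt10 was 0.30 over all cells, but 0.29 on plate 1, just outside the rule for rising genes.

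**Figure D4:**
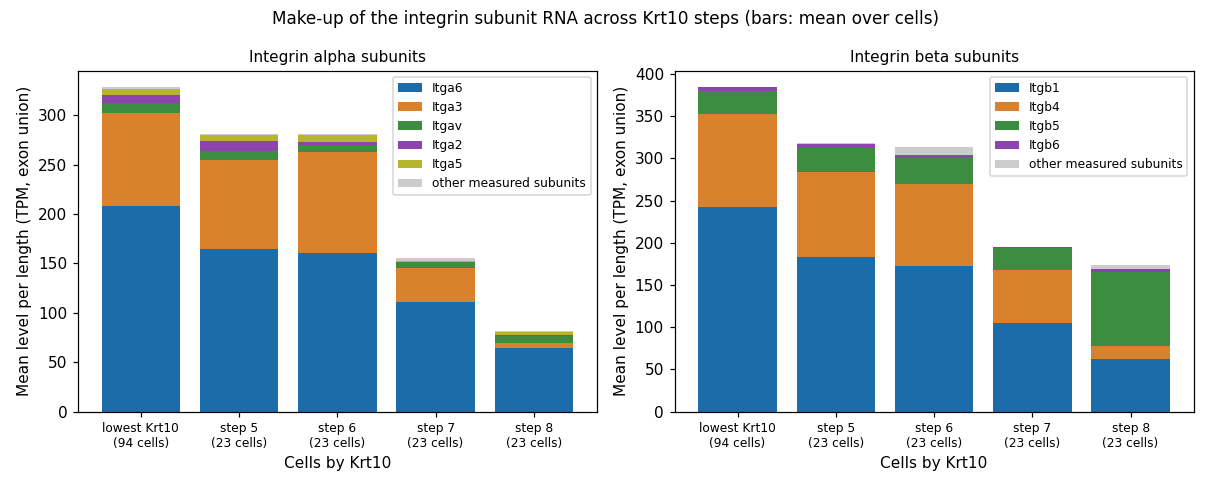
Mean level per length (TPM by exon union) of the integrin alpha subunits (left) and beta subunits (right), stacked, in the 94 cells with the lowest Krt10 and in steps 5 to 8 (23 cells each). The alpha sum goes from 329 to 81.3 TPM with little Itga3 left in step 8, and Itgb5 takes 50.5% of the beta sum there.

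Whether subunits that bind each other vary together was examined over cells, as a description. All points share the cell's depth and the order by Krt10. For the 7 genes with a mean of at least 100 CPM, the 21 pairs had a median rho of 0.34, against 0.01 over all pairs of the 1731 genes at that level. In 5 of 21 pairs rho was at least 0.3 on both plates, against 0.0693% of 1497315 pairs: Itga6 with Plec (0.44), Itga6 with Dst (0.41), Itga3 with Plec (0.40), Itga6 with Itgb1 (0.40) and Itga3 with Itgb1 (0.39). With size factors from pooled cells there were 3 such pairs, and with spike-in scaling 13.

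Known partners did not stand above the others. Among these 7 genes the 7 pairs of partners had a median rho of 0.34 and the 14 other pairs 0.32. The hemidesmosome pair itself, Itga6 with Itgb4, had a rho of 0.34, made of 0.19 on plate 1 and 0.46 on plate 2. Itgb4 with Plec had 0.39 and Itgb4 with Dst 0.33, no higher than Itgb4 with Itga3 at 0.41, which are not known to form a receptor together. Cd151 had low values with the laminin receptor subunits it binds, 0.14 with Itga3 and 0.08 with Itga6.

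The values were smaller once Krt10 was held apart. Given Krt10, depth and plate, the median partial rho over the 21 pairs was 0.17, and within the 94 reference cells Itga6 and Itgb4 had a rho of 0.06 and Itga3 and Itgb1 0.09. The remaining partners had 0.20 (Itga3 with Cd151), 0.19 (Itga6 with Itgb1) and 0.12 (Itgb4 with Dst) in those cells. Itgb4 with Plec had 0.08 there and Itga6 with Cd151 -0.01. Of the 14 other pairs, Itga6 with Plec had the highest value in those cells, 0.24, and Dst with Cd151 the lowest, -0.10. Itga6 with Dst had 0.18 there and Itgb4 with Itga3 -0.06. Over all cells the median partial rho was 0.20 for the 7 pairs of partners and 0.16 for the 14 other pairs. Among the sparse subunits, the 17 cells with Itgb6 at 10 CPM had a median Itgav of 22.7 CPM and 12 of them reached 10 CPM, against a median of 13.2 and 97 of 171 among the other cells. The 39 cells with Itga2 at 10 CPM had a median Itga3 of 231 CPM and a median Itgb1 of 345, against 109 and 238 in the other 149. Those 39 cells also had a lower median Krt10, 777 against 1027 CPM, both at levels where most measured Krt10 was expected to be stray. Itga2 had a rho of 0.29 with Itga3 and 0.12 with Itgb1 over all cells. Given Krt10, depth and plate, the partial rho was 0.26 and 0.05.

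**Figure D5:**
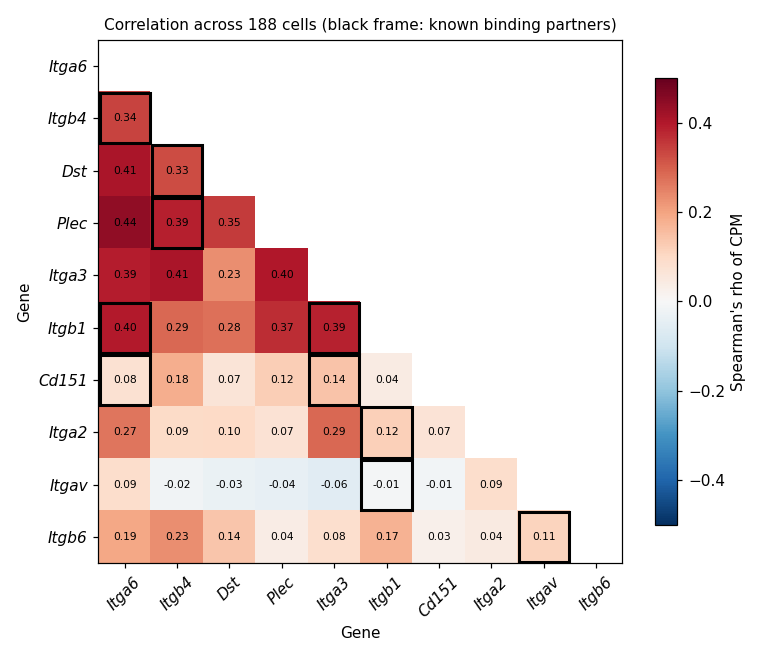
Spearman's rho of CPM over 188 cells for the 45 pairs, from -0.5 (blue) to 0.5 (red), with black frames around the 10 pairs of known binding partners. The red block holds Itga6, Itgb4, Dst, Plec, Itga3 and Itgb1, in frames and outside them, and the row of Itgav is near 0.

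Against the spike-ins, 2 of the 7 abundant genes were variable, meaning that on each plate the squared coefficient of variation was 2 or more times that of spike-ins of the same mean, against 3.91% of 3685 genes with a mean of at least 50 CPM. They were Dst (3.36 and 3.22 times the trend on plates 1 and 2) and Plec (2.33 and 2.77). Itga6 lay just outside on plate 1 (2.00 and 2.74), as did Itgb4 on plate 2 (2.05 and 1.93). Itgb1 was at 3.59 on plate 1, which holds its highest cell, and at 1.797 on plate 2.

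The partners of the hemidesmosome showed the same direction. Of 12 genes of this list, 11 were among the genes tested, 4 fell by the rho rule and all 11 had a step 8 mean of at most 50% of the reference, with a median ratio of 0.25. Over the 9344 genes 0.471% fell, 0.631% rose and 19.2% had such a step 8 mean, with a median ratio of 0.88. Col17a1, the transmembrane collagen of the hemidesmosome, fell (rho -0.45, ratio 0.43), as did Lamb3, a chain of the laminin that both integrins bind (-0.54, 0.16), and the keratins Krt14 (-0.52, 0.18) and Krt15 (-0.42, 0.12). Krt5 had a ratio of 0.31 and missed the rule on plate 1 at -0.28. Of 4 other plakins tested, the family of Dst and Plec, none fell and 1, the desmosomal linker Dsp, rose (rho 0.36, ratio 1.57), with values of 1542 to 5673 CPM in step 8 around a median of 2871, against a reference median of 1772. Ppl, another plakin of desmosomes and the cornified envelope, had a ratio of 1.33, Evpl 2.54 and Macf1, which links actin and microtubules, 0.76.

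Integrin activators and adaptors were mixed. Of 17 tested of 20, 1 fell by the rho rule, Tns1, which links integrin tails to actin (rho -0.50, ratio 0.0843), and 8 had a ratio of at most 0.5. Over the 9344 genes these shares were 0.471% and 19.2%. The most abundant were the actin crosslinker Actn4 (ratio 0.72), Tns4 (0.38), the activator Tln1 (0.46) and the kindlin Fermt1 (0.68). Of 4 tetraspanins tested, none fell or rose, with ratios of 0.88 for Cd9, 0.97 for Cd81, 0.98 for Cd63 and 1.35 for Cd82, against 0.75 for Cd151. Of 19 other integrin subunits, Itgb5 and Itga5, the fibronectin receptor alpha subunit, were among the genes tested, and Itga5 had a mean of 10.8 ± 35.4 CPM.

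Over all 188 cells the mean z score of log2(CPM + 1) of the 10 genes had a rho of -0.58 with Krt10 and 0.01 with depth. The other genes nearest to this score, ranked by the plate nearer to 0 over 9330 genes, were Col17a1 (0.64 on that plate), the taurine transporter Slc6a6 (0.45), the Notch ligand Jag2 (0.44), Tns1 (0.43), the lysosomal protease Ctsl (0.43), Antxr1 (0.42), the cyclin Ccnd2 (0.41), the growth factor Pdgfa (0.41), Lamb3 (0.40) and Ctnnal1 (0.40). Each of these 10 also had a rho with Krt10 between -0.56 and -0.30. At the other end were Krtdap (-0.55), Calm4 (-0.53), Krt10 itself (-0.52), the glycolipid transfer protein Gltp (-0.52) and Ly6d (-0.47). With a pseudocount of 10 in place of 1, 8 of the 10 nearest genes were shared.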

How the data were processed

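The authors deposited raw read counts per gene, whole numbers without normalization, for 188 single-cell libraries. Per the submitters' processing notes, cutadapt 1.13, STAR 2.5.2b, HTSeq 0.6.0 and GRCm38 were used, and no source used here gives the counting mode, the strand or the annotation release. Symbols matched 49326 of 49585 gene rows, and positions and lengths come from GENCODE M21.

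CPM was computed over the gene total without ERCC rows. Stray reads between wells were estimated by index row and column from 41 source genes. Steps, Spearman's rho and the rules of size were computed in Python 3.11.15 (numpy 2.4.6, scipy 1.17.1, pandas 2.3.3), and size factors with scran 1.30.0 in R 4.3.3. The scripts were tested on simulated data. No cell was left out, and no doublet caller was run, since 1 cell was sorted per well. Intervals and limits were computed on numbers of cells and cover counting error only, since no label names an animal. Reads carry no molecular identifiers. The genes named were the 10 members, the 4 most abundant of each list, and the 10 highest and 5 lowest by the score. The members, lists and rules were chosen with earlier results of these data known.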

Additional observations from a re-analysis of the deposited data

How the results depend on the processing

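No paired analysis was possible because there is 1 group and no test. Of 16 alternatives, 15 left the count of members falling with Krt10 within 1.5 times the reported 5 and 15 left the count at or below 50% of the reference in the top step within 1.5 times the reported 6; no falling member changed sign. The exceptions were ordering by Krt1, with 3 falling members, and plate 1 alone in 4 steps, with 3 members at or below 50% (Itga3, Itgb1 and Itga2). Itgb4 left the rule under size factors from pooled cells, under the order by Krt10 after subtraction of stray reads, and without the 2 cells with the highest Krt10, leaving 4 members each time. Dst entered it on plate 2 alone and without the 25% of cells with the lowest depth, and had a top step ratio of 0.49 in the latter. Over all genes, 27 fell and 32 rose with Krt1 as the order, 39 rose with stray reads subtracted, 38 rose with the order by subtracted Krt10, and 69 fell without the 25% of cells with the lowest depth. On 1 plate alone, where only that plate had to pass, 98 fell and 94 rose on plate 1, and 183 fell and 219 rose on plate 2. Pairs of the 7 abundant members at 0.3 numbered 3 with size factors, 13 with spike-in scaling and 14 on plate 2 alone, against 5. Subtracting stray reads from the members and from Krt10 together, and leaving out the cell with a member's highest value, were added after the data were seen; the first left the same 5 members falling, and the second moved only the ratio of Itgb6 (1.02) by over 1.5 times. Itga2 and Itgb6 rest on few cells, and expected stray reads are at or near the top step levels of Itga3 and Itgb4. Each animal's share in the cells is not given in the sources used here, so the spread between animals was not measured.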
